A study of Homo sapiens with 4 samples.

Results

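Treatment of ALDH-negative SUM159 cells with DOX, the inducer of their miR-100 construct, was examined as the difference between the ALDH-negative DOX array and the ALDH-negative control array, which are 2 of the 4 arrays of the series. Values were log2 levels of probe sets, the groups of short probes that stand for a transcript on the array. A probe set counted as measured at a level of 6 or more in either ALDH-negative array, and 23589 probe sets annotated to a gene of their own were. Of 19775 genes represented, 11819 were measured by the probe set with the highest mean level over the 4 arrays, which stood for the gene, and 7956 were not. A gene was called at a difference of 2-fold or more, a log2 difference of 1, and was kept apart as backed where at least 2 of its measured probe sets passed that size and no measured one lay on the other side of 0. SUM159 is an established human breast cancer line that lacks hormone receptors and has mesenchymal features. All 4 groups were cells of the line pTRIPZ-SUM159-mir-100, in which a tetracycline-responsive promoter drives miR-100. The groups were ALDH+ cells without and with DOX and ALDH- cells without and with DOX, sorted by flow cytometry and then held in suspension. The sample titles and the treatment protocol give 10 h of culture and doxycycline, whereas the sample descriptions give 13 h and doxorubicin, a DNA-damaging drug. The labels do not say whether the line is a single clone. Cells without the construct that were given DOX are not analysed here, so the effect of the drug itself and that of miR-100 cannot be told apart. Each group had 1 array, so differences within the ALDH-negative pair have no replicate check and are given without p-values. Where 4 levels are listed without names, the order is ALDH-negative control, ALDH-negative DOX, ALDH-positive control, ALDH-positive DOX. The study set out to find what miR-100 acts on in stem-like and other breast cancer cells.

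MicroRNAs are short RNAs that guide Argonaute proteins to messenger RNAs, mostly by pairing of the seed, a stretch near the 5′ end of the microRNA, with sites in the 3′ untranslated region. The paired messages are translated less and are often degraded, so direct targets of an induced microRNA tend to drop modestly, while genes downstream of them can move either way. miR-100 is a member of the miR-99/100 family, known for repression of mTOR and of chromatin remodellers such as SMARCA5. Aldehyde dehydrogenase (ALDH) activity is used to enrich breast cancer cells with stem-like properties, so the ALDH-negative fraction is the complement of that population. The array does not detect mature microRNAs, so the induction of miR-100 itself was not checked. The mature sequences of the family, from RefSeq on GRCh38.p14, are shown 5′ to 3′ because a reported target of any member can share the site, and the seed, bases 2 to 8, is in capitals.
hsa-miR-100-5p (chr11:122152275-122152296, minus strand): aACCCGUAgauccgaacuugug
hsa-miR-99a-5p (chr21:16539101-16539122, plus strand): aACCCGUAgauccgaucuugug
hsa-miR-99b-5p (chr19:51692618-51692639, plus strand): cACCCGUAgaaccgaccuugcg
All 3 have the seed ACCCGUA. With the base of miR-100-5p written before the position, counted from 1 at the 5′ end, miR-99a-5p differs by A16U and miR-99b-5p by A1C, U11A, A16C and U21C. MIR100HG, the long noncoding host transcript of miR-100, stood at 11.70 in ALDH-negative control and 11.92 with DOX, and 11.17 and 12.02 in the ALDH-positive arrays, a difference of 0.22 in the ALDH-negative pair. It was therefore abundant with and without DOX.

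The 4 arrays had median levels of 6.18 to 6.22. All 14 markers of mesenchymal SUM159 cells were measured in the ALDH-negative pair, with VIM at 13.64 in the control and 13.66 with DOX and CD44 at 12.76 and 12.82. The hormone receptors ESR1 (5.79 and 5.68) and PGR (3.80 and 3.94) lay under 6, as did the leukocyte marker PTPRC (4.19 and 4.22). The RNA of ALDH1A1, the enzyme most often tied to ALDH activity, was 11.77 in ALDH-positive control and 10.72 in ALDH-negative control, so the ALDH-negative cells had a lower level without lacking it. In the RNA of a sorted bulk fraction, fewer cells of a type and less RNA per cell cannot be told apart.

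DOX left the ALDH-negative transcriptome nearly in place and added a short list of higher genes. Of the 11819 measured genes, 32 were 2-fold or more higher (0.271%) and 6 were 2-fold or more lower (0.0508%). The differences had a median of -0.00 and an SD of 0.21 across genes, and 98.2% of genes lay within 1.5-fold. The spread depended on level. Genes with a mean level under 7 had an SD of 0.36 and those at 9 or more an SD of 0.14, and 1.46% of the former were past 2-fold against 0.0401% of the latter. Of the 32 higher genes, 16 started from a control level under 6, taken here as background, and 22 still passed the 2-fold size when levels under 6 were set to 6. Close to the 2-fold limit, MAMDC2 (1.03) and SULF1 (1.06) lay just inside and ARHGAP26 (0.99) and ANTXR2 (0.96) just outside on the higher side, and CXCL10 (-1.03) and LAMP3 (-1.15) inside and ZC3H12B (-0.97) and CXCL1 (-0.96) outside on the lower. At the level limit of 6, the higher of the ALDH-negative arrays was at 6.0011 for MORN3 and 6.0018 for PLEKHG5, just inside, and at 5.9989 for RGS14, just outside.

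**Figure D1:**
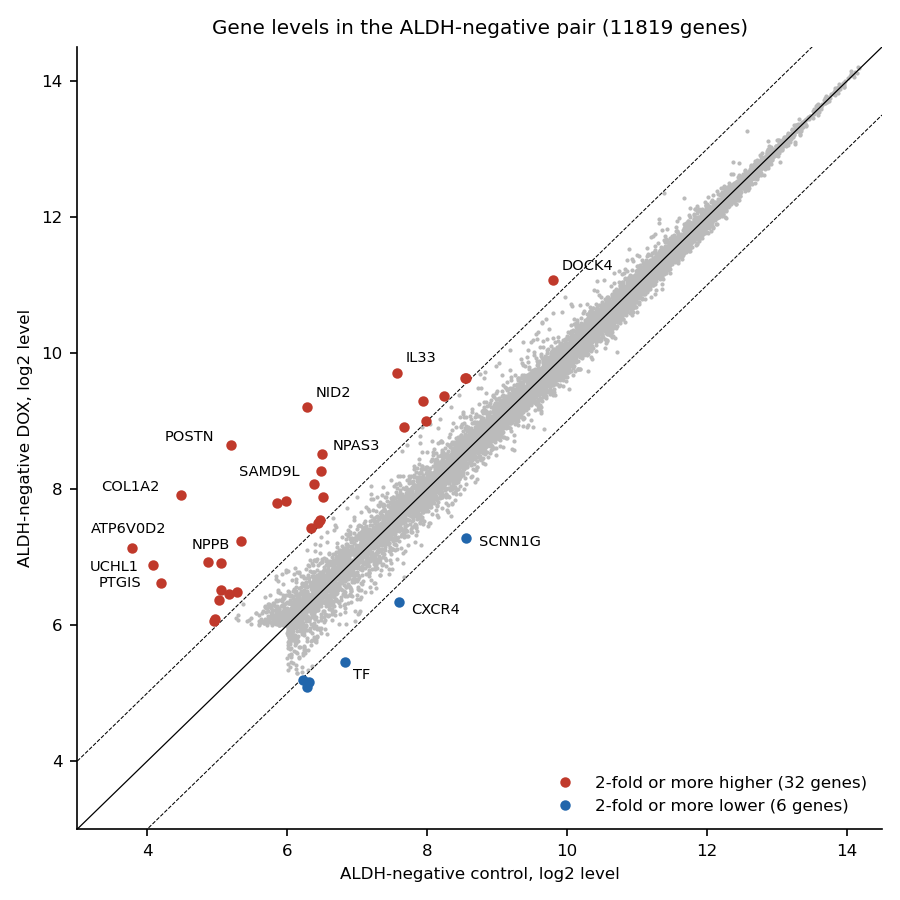
Log2 level of each of 11819 measured genes in the ALDH-negative control array (horizontal axis) and the ALDH-negative DOX array (vertical axis), 1 point a gene and 1 array an axis, with the line of equal levels solid and 2-fold differences dashed. The 32 genes past 2-fold higher lie mostly at low control levels, and 4 of the 6 lower genes drop under 6 with DOX, which SCNN1G and CXCR4 do not.

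Genes backed by several probe sets are given in a group that lay under 6 in the other 3 arrays and a group that was measured in ALDH-positive cells as well. Of 6298 genes with 2 or more measured probe sets, 9 were backed higher (0.143%) and 1 backed lower (0.0159%). The first group holds COL1A2, POSTN and ATP6V0D2. COL1A2, a chain of type I collagen, read 4.48 in ALDH-negative control and 7.91 with DOX, and 4.54 and 4.56 in the ALDH-positive arrays by its brightest probe set, a difference of 3.44. Its second measured probe set read 4.14, 8.36, 4.05 and 3.54 in the same order, a difference of 4.23. The ALDH-negative DOX array alone stands above background in both. A further COL1A2 probe set stayed at 3.46 and 3.52 in the ALDH-negative pair, so the probe sets for the gene did not all differ. Both COL1A2 probe sets that differed are of the shared kind, named _s_at or _x_at, whose probes can match other transcripts, and the one that stayed at background is not shared. POSTN, the matricellular protein periostin that binds collagen, read 5.20, 8.65, 4.72 and 4.29 by its brightest probe set, a difference of 3.45, and 3.89, 6.44, 3.67 and 3.70 by the other measured one, a difference of 2.55. Further POSTN probe sets, not of the shared kind, stayed at background, at 3.58 and 3.52 and at 3.53 and 3.40 in the ALDH-negative pair. ATP6V0D2, a vacuolar proton pump subunit best known from osteoclasts, read 3.79, 7.14, 3.73 and 3.49, and a second probe set read 3.996, 7.23, 3.63 and 3.23, differences of 3.35 and 3.23. For all 3 genes the other 3 arrays lay under 6, so the true size of the difference is uncertain. With levels under 6 set to 6 it was 2.65 for POSTN, 1.91 for COL1A2 and 1.14 for ATP6V0D2. The second POSTN probe set then gave 0.44, so POSTN was no longer backed. Without shared probe sets none of these 3 genes was backed, and MEF2C was not either, which left 5 of the 9. Probe sets of a gene can share sequence and RNA, so their concordance checks the probes and not the culture.

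Type I collagen has another chain, and it did not show the same pattern. COL1A1 was abundant throughout, at 11.22 in ALDH-negative control and 11.72 with DOX, and 11.42 and 12.53 in the ALDH-positive arrays, a difference of 0.50 in ALDH-negative cells. COL3A1, a fibrillar collagen that often accompanies type I, was at 9.62 and 9.50 in the ALDH-negative pair. Of 29 measured genes of the fibrillar matrix list, 3 were past 2-fold higher, against 0.271% of all genes. These were POSTN, COL1A2 and the fibrillin FBN2 (4.96 and 6.08), each from a control level under 6. They counted as measured through the DOX array alone. Their share of the measured genes thus depends on the same values as their calls, and it was not tested. FBN2 was at 0.08 with levels under 6 set to 6, and its other probe sets stayed under 6 with differences of 0.30 and 0.08. Of the 29 genes 17 were above 0 and the median was 0.05, against 48.7% of all genes above 0 and a median of -0.00. THBS2, thrombospondin-2, differed by 0.88. Some of these genes also mark fibroblasts. Of 14 fibroblast and pericyte markers, 8 were measured. Of these 1, the smooth muscle actin ACTA2 (8.34 and 9.21), was past 1.5-fold higher, against 1.15% of all genes. The summed linear level of that list was 15512 without and 15410 with DOX in ALDH-negative cells. Abundant members such as PDGFRA weigh most in that sum, so it could not show a change in members at low levels. PDGFRA was at 12.43 and 12.35, DCN at 11.78 and 11.69 and FAP at 4.22 and 4.32, the last at background. LUM, lumican, was under 6 in both arrays at 3.74 and 5.75.

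By the brightest probe set, the second backed group had higher levels with DOX in both fractions. ALPK2, an alpha-kinase, read 6.49 in ALDH-negative control and 8.26 with DOX, and 7.16 and 9.43 in the ALDH-positive arrays, and its differences in ALDH-negative cells were 1.77 and 1.80 by its measured probe sets. SAMD9L, an interferon-inducible antiviral and growth-restraining protein, read 6.38, 8.07, 6.94 and 8.13, and 3 probe sets gave 1.44 to 1.94. TTC39B, a protein linked to lipid metabolism, read 5.05, 6.92, 7.21 and 8.54 and differed by 1.87 and 1.93, or by 0.92 and 0.33 with levels under 6 set to 6, where it was no longer backed. In these genes both DOX arrays lay above both controls, except that the ALDH-negative DOX level of TTC39B stayed under the ALDH-positive control. NPAS3, a neuronal transcription factor of the bHLH-PAS family, read 6.50, 8.51, 5.17 and 6.16 and differed by 2.01 and 1.51. MEF2C, a transcription factor of muscle and endothelium, read 7.94, 9.30, 7.09 and 8.02 and differed by 1.36 and 1.14. ANTXR2, a transmembrane receptor for collagen IV and laminin that is also an anthrax toxin receptor, had 4 measured probe sets, at 0.96 to 1.24, the brightest reading 11.39, 12.35, 9.92 and 11.11. ANTXR2 thus was abundant in ALDH-negative cells before DOX and higher with it. The group holds those 6 of the 9 backed higher genes that reached 6 in an ALDH-positive array, and NPAS3 did so with DOX alone. By the brightest probe set, chosen on its mean over all 4 arrays, their ALDH-positive differences ran from 0.93 to 2.28. Other probe sets differed less in some of them. In the ALDH-positive pair the second probe set of NPAS3 read 4.77 and 4.59, a difference of -0.18, that of MEF2C gave 0.29, that of ALPK2 0.76 and 1 of ANTXR2 0.16, whereas the 3 of SAMD9L gave 1.04 to 1.998 and the second of TTC39B 3.09. Over all 11605 genes measured in both pairs, 13.7% were past 1.5-fold higher and 2.81% past 2-fold higher in the ALDH-positive pair.

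**Figure D2:**
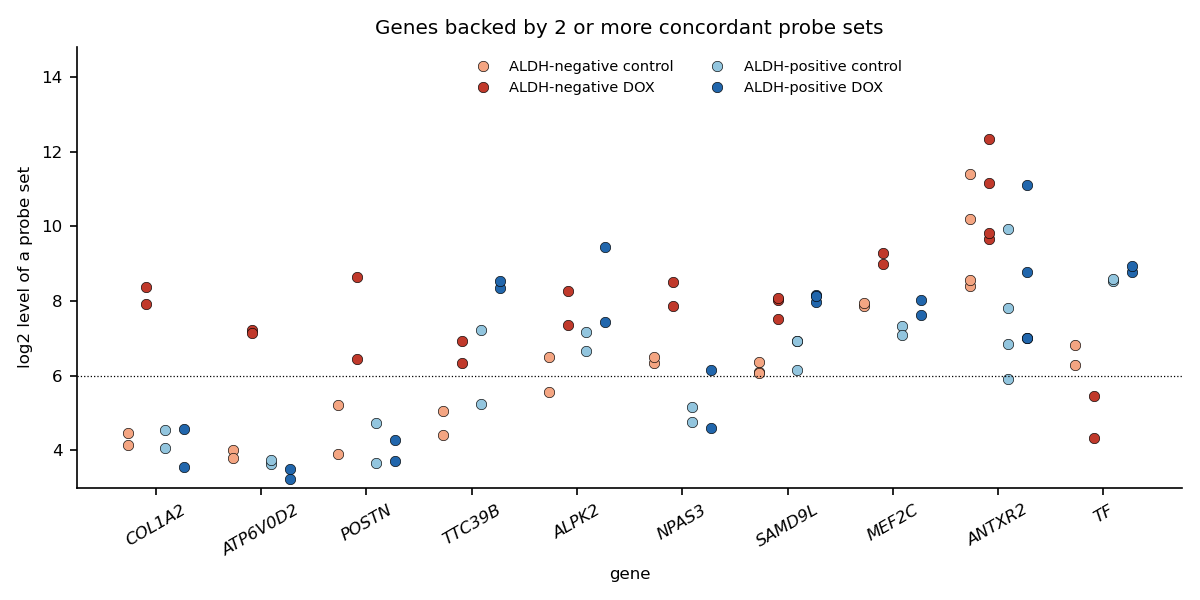
Log2 level of every measured probe set (points) of the 10 backed genes in the 4 arrays, with colours for the arrays and the level of 6 as a dotted line. COL1A2, ATP6V0D2 and POSTN stand above 6 in the ALDH-negative DOX array alone, while the other higher genes also reach higher levels in ALDH-positive DOX for at least 1 probe set.

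TF, the iron carrier transferrin, was the sole backed lower gene. It read 6.82 in ALDH-negative control and 5.45 with DOX, and 8.58 and 8.93 in the ALDH-positive arrays by its brightest probe set, and 6.29, 4.34, 8.53 and 8.77 by the other measured one, differences of -1.37 and -1.96. TF was thus lower in ALDH-negative than in ALDH-positive cells before DOX and reached background with it. Both probe sets are of the shared kind, and the brighter of its probe sets that are not shared lay at 4.44 and 4.25. The other 14 of 15 measured iron and haem genes lay between -0.21 and 0.14, among them HMOX1, haem oxygenase, at 13.25 and 13.11.

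NID2 rose with DOX in the sole test that the series allows. NID2 encodes nidogen-2, a basement membrane protein that bridges laminin and collagen IV. It read 6.29 in ALDH-negative control and 9.21 with DOX, and 5.20 and 7.63 in the ALDH-positive arrays, differences of 2.92 and 2.43. Both DOX arrays lay above both controls. An additive model of ALDH fraction and DOX over the 4 arrays, fitted with limma to 12365 genes, gave NID2 a DOX difference of 2.67 ± 0.29 (SE) with an adjusted p of 0.0062, higher in 2 of 2 pairs. The model has 1 residual degree of freedom and takes each fraction as the repeat of the other, so a difference in response between fractions counts as error. NID2 was the single gene past an adjusted p of 0.05 and no gene passed on the lower side, with 368 higher and 284 lower at an unadjusted p under 0.05. Without the trend in the variance, without the filter on level or after cyclic loess no gene passed in limma. ALPK2 came next, at 2.02 ± 0.28 (SE) and an adjusted p of 0.0525 in limma, followed by UNC5C and ANTXR2, each at 0.149. POSTN had an adjusted p of 0.892 and COL1A2 one of 0.855 in that limma model, since their differences appeared in the ALDH-negative pair alone. NID2 is read by a single measured probe set and so could not be backed. Of 16 measured basement membrane genes, 14 were above 0 with a median of 0.10, and LAMA2 (0.42) was the next after NID2.

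The other called higher genes had 1 measured probe set or probe sets that differed in size. Among secreted and membrane signals, IL33, an alarmin of the IL-1 family, read 7.57 in ALDH-negative control and 9.71 with DOX, and 4.24 and 4.96 in the ALDH-positive arrays, a difference of 2.14. IL33 was thus measured in the ALDH-negative fraction alone and 4.42-fold higher there with DOX. Its receptor IL1RL1 was abundant at 12.13 and 11.90. CCL2, the monocyte-attracting chemokine, read 5.33, 7.23, 5.82 and 5.81, a difference of 1.90, and NPPB, the precursor of B-type natriuretic peptide, read 4.87, 6.93, 5.13 and 4.43, a difference of 2.06. Neither reached 6 in an array other than ALDH-negative DOX. VCAM1, an adhesion molecule that binds leukocyte integrins, read 4.95, 6.06, 7.90 and 8.52, so that its level with DOX in ALDH-negative cells was just above the limit and below both ALDH-positive arrays. UNC5C, a netrin receptor, read 6.51, 7.89, 6.50 and 8.96 and was higher by 1.38 in ALDH-negative and 2.46 in ALDH-positive cells, from nearly equal control levels. LPAR3, a lysophosphatidic acid receptor, differed by 1.07 and SULF1, which trims sulfate from heparan sulfate, by 1.06.

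Among intracellular proteins, ALDH1A3, an aldehyde dehydrogenase that makes retinoic acid, read 5.86 in ALDH-negative control and 7.79 with DOX, and 6.48 and 6.64 in the ALDH-positive arrays, a difference of 1.94. By that probe set its ALDH-negative DOX level was the highest of the 4 arrays, above both arrays sorted for ALDH activity. The other ALDH1A3 probe set lay at background, at 4.33 and 4.13 in the ALDH-negative pair. ALDH1A1 was at 10.72 and 10.86 in the same pair. Of 14 measured aldehyde dehydrogenases 1 was past 2-fold higher, against 0.271% of all genes. This was ALDH1A3, which counted as measured through the DOX array alone, so that share depends on the value that made its call. After ALDH1A3, the sizes were 0.30 for ALDH3A2, -0.26 for ALDH5A1 and 0.21 for ALDH8A1. TES, testin, a focal adhesion protein, read 5.98, 7.82, 6.71 and 7.88, a difference of 1.84. Its second measured probe set gave 0.69 in the ALDH-negative pair and -0.46 in the ALDH-positive pair. DOCK4, an activator of Rac and Rap GTPases, read 9.80, 11.07, 7.90 and 8.33, a difference of 1.27 at the highest level of any called gene. UCHL1, a neuronal ubiquitin hydrolase, read 4.08, 6.89, 4.79 and 4.95 by a shared probe set, and PTGIS, prostacyclin synthase, 4.20, 6.62, 4.16 and 4.08, also by a shared one. Both rested on background in the other 3 arrays. The probe set of UCHL1 that is not shared read 3.70 and 3.67 in the ALDH-negative pair. Other PTGIS probe sets, also shared, stayed at background in that pair, with differences of 0.11 and 0.22. KRT19, a keratin of simple epithelia, differed by 1.29 to a level of 6.46, EN1, a homeobox factor, by 1.13 to 9.36, LRRK2, a kinase of the endolysosomal system, by 1.09 to 9.63, and ATXN1, a transcriptional corepressor, by 1.07 to 9.63 with its 5 measured probe sets at 0.76 to 1.07.

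The other 5 lower genes each had 1 measured probe set. SCNN1G, a subunit of the epithelial sodium channel, read 8.56 in ALDH-negative control and 7.29 with DOX, and 8.62 and 7.55 in the ALDH-positive arrays, differences of -1.27 and -1.06. Both DOX arrays lay below both controls, and SCNN1G had an adjusted p of 0.748 in the limma model. Its other probe set lay at background, at 4.47 and 4.54 in the ALDH-negative pair. CXCR4, the receptor of the chemokine CXCL12, read 7.60, 6.34, 7.04 and 7.26, a difference of -1.25 in ALDH-negative cells against 0.22 in ALDH-positive cells. Other CXCR4 probe sets, of the shared kind, lay at background, with 3.94 and 3.74 and with 4.03 and 3.75 in the ALDH-negative pair. The ligand CXCL12 (6.48 and 5.96) was at -0.52 in the ALDH-negative pair, and the scavenging receptor ACKR3 at 0.10. CXCL10, an interferon-induced chemokine, read 6.23, 5.19, 6.97 and 5.91 and was lower by about the same size in both fractions, -1.03 and -1.05. NELL2, a secreted neuronal glycoprotein, read 6.28, 5.08, 6.61 and 6.84. LAMP3, a lysosomal membrane protein of dendritic cells, read 6.32, 5.17, 8.16 and 8.89. The DOX level was under 6 for TF, CXCL10, NELL2 and LAMP3, and SCNN1G and CXCR4 alone stayed past 2-fold with levels under 6 set to 6.

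Promoters were available for 17 of 39 called or backed genes in a RefSeq table of GRCh38.p14, where genes with a single listed start were used. Those of POSTN, VCAM1 and CXCL10 are shown because POSTN had the largest called difference and these 3 held a match to the core of the interferon-stimulated response element, which is GAAA, 2 bases of any kind and GAAA again. Each runs 5′ to 3′ over the 250 bases before the start of transcription, and capitals mark matches on either strand to that core, to the TATA box in the form TATAAA, to the box named for its letters CCAAT, to the AP-1 site in the form TGAGTCA or to the cAMP response element in the form TGACGTCA.
POSTN (chr13:37598769-37599018, minus strand): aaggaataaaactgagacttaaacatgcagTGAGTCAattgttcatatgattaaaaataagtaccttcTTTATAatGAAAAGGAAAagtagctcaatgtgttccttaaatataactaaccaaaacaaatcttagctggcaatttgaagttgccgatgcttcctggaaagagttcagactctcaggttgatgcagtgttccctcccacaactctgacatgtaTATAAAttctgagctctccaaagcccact
VCAM1 (chr1:100719492-100719741, plus strand): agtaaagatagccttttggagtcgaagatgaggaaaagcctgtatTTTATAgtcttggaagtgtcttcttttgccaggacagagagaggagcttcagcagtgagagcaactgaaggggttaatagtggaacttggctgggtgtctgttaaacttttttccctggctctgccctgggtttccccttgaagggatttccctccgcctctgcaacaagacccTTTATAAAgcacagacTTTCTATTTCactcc
CXCL10 (chr4:76023498-76023747, minus strand): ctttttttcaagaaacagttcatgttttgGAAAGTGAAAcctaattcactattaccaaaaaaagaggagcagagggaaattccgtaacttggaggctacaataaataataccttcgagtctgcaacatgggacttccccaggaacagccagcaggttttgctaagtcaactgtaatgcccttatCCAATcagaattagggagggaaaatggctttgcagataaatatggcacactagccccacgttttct
POSTN and VCAM1 each have TATAAA 29 to 24 bases before the start, and the adjoining VCAM1 matches on both strands overlap. Among 16 higher genes with a promoter, 5 held TATAAA, against 11.8% of all 22114 promoters and 5.24% of those of 6855 measured genes. The interferon core was in 2 of the 16, in 3.21% of all promoters and in 2.51% of those of measured genes. The AP-1 letters were in 2 of 16, 4.36% and 2.52%, CCAAT in 6 of 16, 33.4% and 36.5%, and the cAMP element in 0 of 16, 1.82% and 3.46%, in the same order. These matches describe letters and were not tested, and SAMD9L, which was 3.23-fold higher, had no match to any of the 5 motifs in its window.

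Genes with several measured probe sets of which some passed 2-fold, but which were not backed, numbered 12 on the higher and 7 on the lower side. Counting any measured probe set, 42 of 11828 genes had one past 2-fold higher (0.355%) and 13 one past 2-fold lower (0.11%). TMEFF2, a transmembrane protein with follistatin domains, read 13.53 and 13.59 by its brightest probe set in the ALDH-negative pair but 6.59 and 8.26 by another, which also went from 5.08 to 7.60 in the ALDH-positive pair. RPS6, a ribosomal protein, lay between 13.54 and 13.70 in 3 probe sets with differences of 0.01 to 0.05, and another went from 6.59 to 5.45. TAGLN, an actin-binding protein of smooth muscle, was at 5.23 and 6.88 in one probe set and 6.58 and 6.70 in the other. IGFBP5, which binds insulin-like growth factors, went from 4.58 to 6.23 and, by its other probe set, from 5.60 to 6.002. HBE1, embryonic globin, was at 9.59 and 9.58 by the brighter probe set and at 6.04 and 4.79 by the dimmer. In TMEFF2, RPS6 and HBE1 the brightest probe set differed by less than 0.1, and the call rests on a dimmer one.

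At 1.5-fold, 136 genes were higher (1.15%) and 73 lower (0.618%), and 34 and 10 genes were backed at that size. Among the higher ones at good levels, CD55, which shields cells from complement, read 12.58 in ALDH-negative control and 13.27 with DOX, and 12.85 and 12.71 in the ALDH-positive arrays, and all 3 probe sets gave 0.60 to 0.72. MALT1, a paracaspase of NF-kB signalling, read 9.80, 10.58, 9.64 and 10.76 with 3 probe sets at 0.74 to 0.85. HPGD, which breaks down prostaglandins, read 9.36, 10.16, 5.80 and 7.98. Both DOX levels exceeded their own control in MALT1 and HPGD. STC1, the hormone stanniocalcin-1, differed by 0.60 and 1.03 in the ALDH-negative and ALDH-positive pair and the nuclear factor SETBP1 by 0.83 and 0.97. IL1B was backed as well, at 0.92 and 0.93 by its probe sets. Among the lower ones, HLF, a circadian output factor, read 6.97, 6.21, 8.08 and 7.25. EDN1, the vasoconstrictor endothelin-1, read 10.02, 9.46, 11.34 and 10.74, with 3 probe sets at -0.70 to -0.56. APPL1, an endosomal adaptor, had -1.04 and -0.59. In HLF and EDN1 each DOX array lay below its own control by a like size in both fractions.

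The ALDH-positive pair shares no array with the ALDH-negative pair, so its values can be set beside the calls. Of the 32 higher genes, 19 were measured in ALDH-positive cells, and 6 of those 19 were past 2-fold higher there (NID2, UNC5C, ALPK2, TTC39B, SAMD9L and TES), where 2.81% of all genes were. These counts use the brightest probe set. The second TES probe set went the other way in the ALDH-positive pair, from 6.32 to 5.86. The median ALDH-positive difference of the 19 was 0.62, and 17 lay above 0, as did 60.3% of all genes. None was past 2-fold lower. Of the 6 lower genes, SCNN1G and CXCL10 were past 2-fold lower in ALDH-positive cells, where 2.27% of all genes were, and the other 4 lay above 0. Among the 112 genes past 1.5-fold higher that were measured in ALDH-positive cells, 48.2% were past 1.5-fold higher there too, against 13.7% of all genes. Among 63 lower genes 14 (22.2%) were past 1.5-fold lower, against 6.77% of all, and 28 lay below 0, against 39.7% of all. More of the 63, namely 17, were past 1.5-fold higher, as were 13.7% of all genes. Across all 11605 genes the differences of the fractions correlated with r = 0.139 and rho = 0.11. The ALDH-positive differences were wider, with an SD of 0.51 and a median of 0.12, against 0.21 and -0.00. The difference in response between fractions has no residual degree of freedom and was not tested. Control probe sets for 18S ribosomal RNA differed by -1.90 at the 3′ end and -1.94 at the 5′ end in the ALDH-positive pair and by 0.45 and 0.20 in the ALDH-negative pair, and the part of RNA quality in the contrast was not tested.

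**Figure D3:**
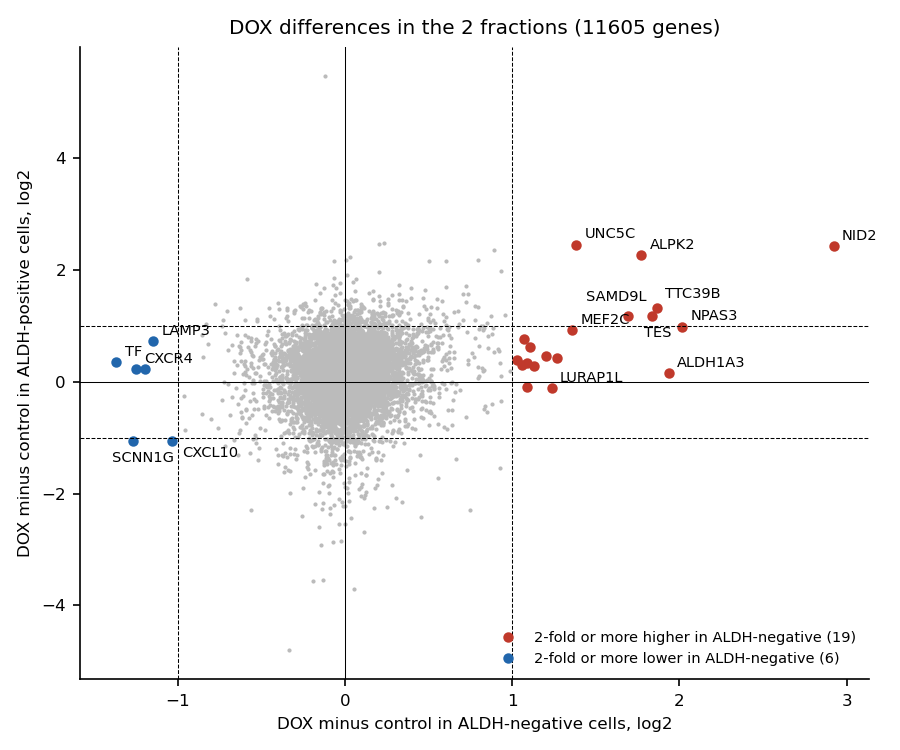
DOX minus control in ALDH-negative cells (horizontal axis) and ALDH-positive cells (vertical axis), log2, 1 point for each of 11605 genes measured in both pairs, with 2-fold limits dashed. Of 19 genes past 2-fold higher in ALDH-negative cells 17 lie above 0 in ALDH-positive cells, and of 6 lower genes 2 lie below 0.

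Reported targets of the miR-99/100 family lay a little below 0 on the whole, and none reached 2-fold. Of 32 genes on the list, 23 were measured, 16 of them (69.6%) below 0 against 51.2% of all genes, with a median of -0.09. FZD5, a Wnt receptor, was the lowest, at 9.51 in ALDH-negative control and 8.91 with DOX, and 8.31 and 8.17 in the ALDH-positive arrays, a difference of -0.60 by a shared probe set. HS3ST3B1, a heparan sulfate sulfotransferase, differed by -0.41, TRIB2, a pseudokinase, by -0.39 and CTDSPL, a small phosphatase, by -0.32. All 5 measured probe sets of CTDSPL and both of TRIB2 lay below 0. NMT1, which adds myristate to proteins, read 10.81, 10.57, 11.12 and 10.43 with all 3 probe sets below 0, and SMARCD1, a SWI/SNF subunit, read 9.58, 9.32, 9.23 and 8.61. Each DOX array lay below its own control in both genes. SMARCA5, the ISWI ATPase, differed by -0.09 by its brightest probe set and by -0.33 at the lowest of 3. MTOR read 8.37, 8.14, 7.67 and 8.04, lower by -0.23 in ALDH-negative and higher by 0.37 in ALDH-positive cells, RPTOR was at -0.08 and 0.69, and BMPR2, a BMP receptor, at 0.03 and 0.12. Of the 23 targets, 12 (52.2%) were below 0 in both pairs, as were 22.0% of the 11605 genes measured in both. Of 13 targets with 2 or more measured probe sets, 7 had all below 0, 1 had all above and 5 were split, while 27.9% of all such genes had all below 0 and 20.5% all above. In the limma model no target passed. NMT1 came closest with -0.47 ± 0.21 (SE) and an adjusted p of 0.916.

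**Figure D4:**
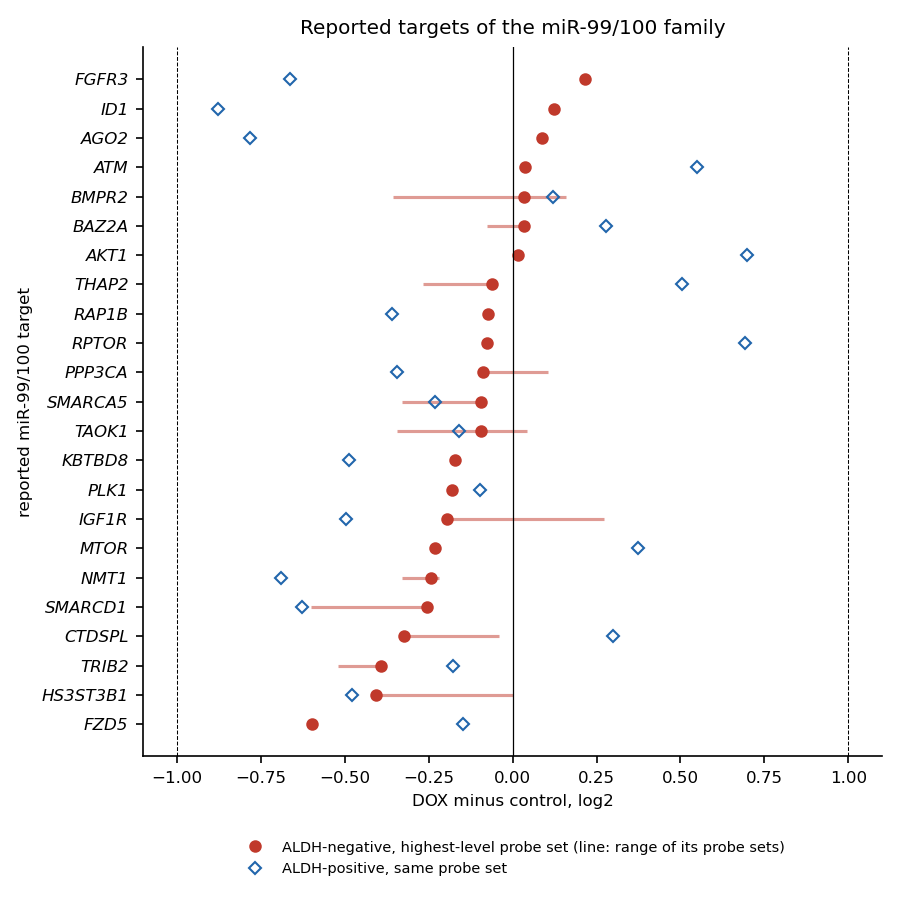
DOX minus control, log2, of 23 measured reported targets of the miR-99/100 family, with ALDH-negative cells as filled circles, the range over a gene's measured probe sets as lines, and ALDH-positive cells as open diamonds. The ALDH-negative values run from -0.60 to 0.22, with 16 of 23 below 0, inside the 2-fold limits shown dashed.

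Gene lists for the pathways of these genes were mostly centred near 0, with a few members far out. Of all 11819 measured genes, 0.271% were past 2-fold higher and 0.0508% lower, and 1.15% and 0.618% at 1.5-fold. In the IL-1 family 1 of 12 measured members was past 2-fold (IL33) and 4 past 1.5-fold higher (IL33, IL1B, IL1A and IL18RAP), with a median of 0.05. Of 24 NF-kB and inflammatory genes, CCL2 and VCAM1 were past 2-fold higher, and CXCL1 (-0.96), a neutrophil chemokine, and PTGS2 (-0.64), the inducible cyclooxygenase, past 1.5-fold lower, with 17 of 24 below 0. Of 27 interferon-stimulated genes, SAMD9L was past 2-fold higher and LAMP3 and CXCL10 lower. SAMD9, the paralogue of SAMD9L, differed by 0.49, and the median was 0.10, or -0.01 without shared probe sets. Inflammatory and interferon genes thus lay on both sides. Of 10 receptors and ligands of the CXCR4 and CXCR3 axes 5 were measured, of which 4 lay below 0 and CXCR4 and CXCL10 past 2-fold lower, with a median of -0.525. That median depends on few genes, and was -0.23 with levels under 6 set to 6, -0.67 at a level of 7, -0.08 without a level filter and -0.09 by means of probe sets, and 0.22 in the ALDH-positive pair. Of 18 prostaglandin genes PTGIS was past 2-fold, and of 20 V-ATPase subunits ATP6V0D2 alone, the next being ATP6V1B2 at 0.39. CCL2, VCAM1, PTGIS and ATP6V0D2 counted as measured through the DOX array alone, and LAMP3 and CXCL10 through the control array alone. Their shares of the lists thus depend on the same values as their calls. Integrins had 10 of 12 above 0 and a median of 0.21, led by ITGB3 (7.20 and 8.05).

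No member of the p53, integrated stress response, unfolded protein response, heat shock or cell cycle lists was past 2-fold. Of 27 p53 target genes none was past 1.5-fold, with the cell cycle inhibitor CDKN1A at 11.26 and 11.51 and MDM2, the ligase that degrades p53, at 12.11 and 12.17. Of 30 genes of the integrated stress response CHAC1 alone was past 1.5-fold, from 6.08 to 5.44. Above 0 lay 48.7% of all genes. Of 39 G1/S genes 9 were above 0, with a median of -0.09 and E2F2 (10.69 and 10.23) the lowest, and of 39 G2/M genes 7 were above 0, with a median of -0.06. Of 62 mitochondrial ribosome genes 13 were above 0, with a median of -0.06, and of 49 respiratory chain genes 19, with -0.03, while 11 housekeeping genes had a median of 0.01. Of 32 mTOR pathway genes RRAGD, a GTPase that activates mTORC1 on lysosomes, was at -0.59, DEPTOR, an inhibitor of mTOR, at -0.44 and RICTOR, of mTORC2, at 0.33, around a median of 0.01. None of these list medians has a replicate check.

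**Figure D5:**
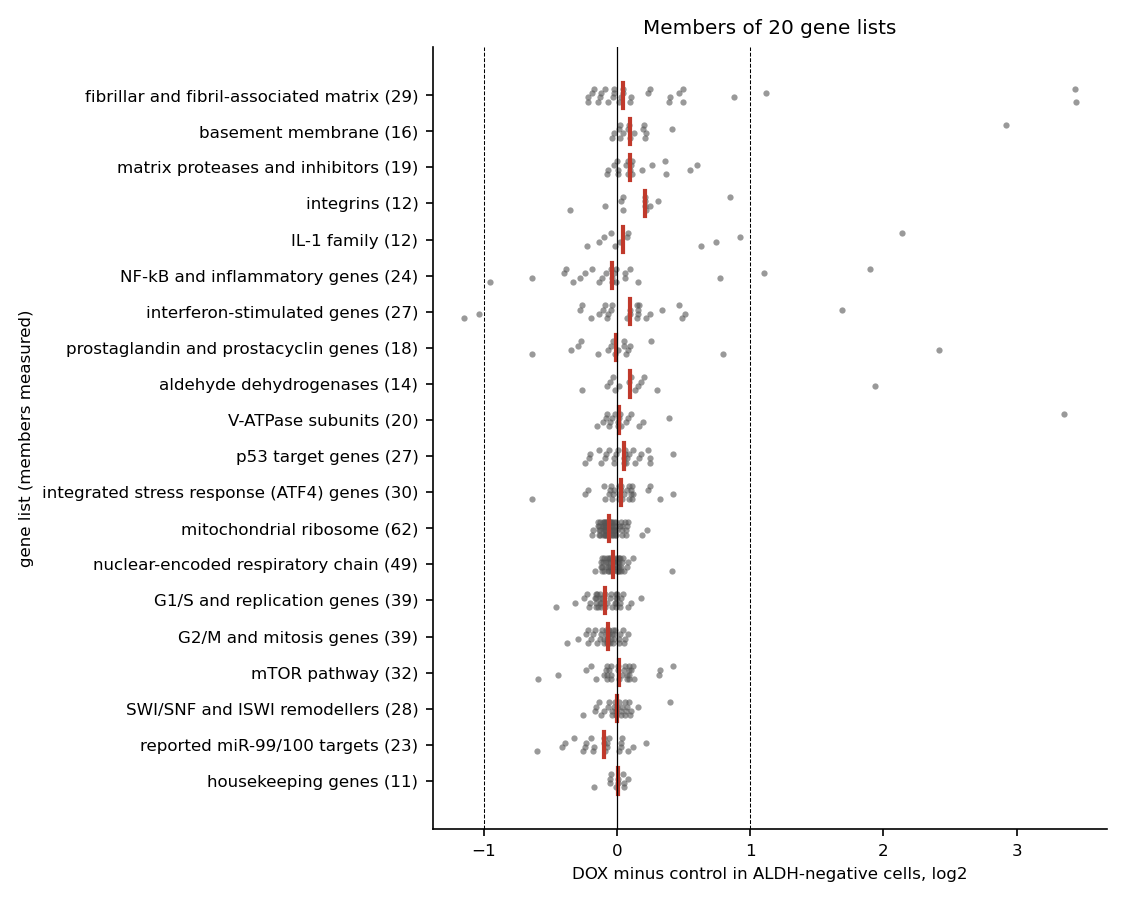
DOX minus control in ALDH-negative cells, log2, of each measured member (points) of 20 gene lists, with the number measured in brackets and the median as a red bar. Medians of the 20 lists shown lie between -0.09 and 0.21. Members of the matrix, basement membrane, IL-1, NF-kB, interferon, prostaglandin, ALDH and V-ATPase lists lie past the dashed 2-fold limit on the higher side. LAMP3 and CXCL10 of the interferon list lie past it on the lower side.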

How the data were processed

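Total RNA of 4 groups, 1 sample each, was hybridised to Affymetrix expression arrays. The deposited values are log2 probe set levels that the authors made with RMA, per the submitters' processing notes, a method of background correction, quantile normalisation and probe summary whose version the sources used here do not give. Quantile normalisation hides a shift common to most genes. No further scaling was applied.

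Of 54675 probe sets, 62 were controls. A platform annotation of 2016 gave 41091 of them 1 gene, 1801 several and 11721 none. Of the 41091, 41037 were matched to a RefSeq gene symbol by gene identifier. Measured probe sets had a log2 level of 6 or more in either ALDH-negative array. Calls of 2-fold rest on size. The additive model was fitted with limma 3.58.1 in R 4.3.3 (lmFit, eBayes with trend, two-sided p adjusted by Benjamini and Hochberg over 12365 genes at level 6 in any array, prior of 11.6 degrees of freedom). Nothing says that the arrays came from separate cultures beyond the sorted groups, so those p-values may reflect technical spread. The steps were tested on simulated data. The remaining steps ran in Python 3.11.15 with matplotlib 3.10.9, pandas 2.3.3 and numpy 2.4.6.

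Genes that could be named were all backed genes, the largest other calls, up to 4 members of each list, all measured targets and aldehyde dehydrogenases, and genes at the thresholds. Genes of the 1.5-fold paragraph, examples of mixed genes, COL3A1, HMOX1 and marker genes were picked after their values were seen. Members and the 44 lists were chosen with earlier results of these data known. Alternatives were median centring, cyclic loess, no level filter, a level of 7, a floor at 6 and no shared probe sets (names ending in _s_at or _x_at). Further ones were means of probe sets, 1.5-fold, eBayes without trend, and eBayes with both trend and the robust option.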

Additional observations from a re-analysis of the deposited data

Results flagged for a closer look

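Of 11605 genes measured in both pairs, 8 differed in opposite ways in the fractions, at least 1.5-fold in ALDH-negative and at least 2-fold in ALDH-positive cells. In the wider ALDH-positive pair 2.81% of all 11605 genes were past 2-fold higher and 2.27% past 2-fold lower. The difference between fractions was not tested in any of the 8, since each group had 1 array. Levels are in the order ALDH-negative control, ALDH-negative DOX, ALDH-positive control, ALDH-positive DOX. IL1A, interleukin-1 alpha, read 8.16 in ALDH-negative control and 8.90 with DOX, and 10.86 and 8.56 in the ALDH-positive arrays, so that the ALDH-negative difference exceeded the ALDH-positive one by 3.04. Its other probe set, under 6 in both ALDH-negative arrays, went the other way. IL1B, interleukin-1 beta, read 8.46, 9.38, 8.89 and 7.35, with 2.47 between the differences and both measured probe sets opposite. SLC2A13, a myo-inositol transporter, read 10.05, 10.72, 10.23 and 8.86, with 2.03 between the differences and 2 of the 3 probe sets compared opposite. In these 3 genes the ALDH-negative DOX level was above its control and the ALDH-positive DOX level below.

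The other 5 went the reverse way. HYMAI, an imprinted noncoding RNA, read 6.13, 5.35, 4.92 and 6.32, with -2.18 between the differences. IGLC1, an immunoglobulin light chain gene, had -1.98, AGBL3, a carboxypeptidase of tubulin, -1.96, SNAP25, a synaptic vesicle fusion protein, -1.88, and CDKN1C, the cell cycle inhibitor p57, -1.83. For IGLC1, 2 of the 3 probe sets compared were opposite. CDKN1C read 8.34, 7.60, 7.29 and 8.39, and 1 of its 2 measured probe sets was opposite. The unequal 18S values of the pairs, given with the comparison of the fractions, were not tested as a part of these differences.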

How the results depend on the processing

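No paired analysis was possible because the labels give no replicate numbers and each group had 1 array, so no replicate could be left out. The additive model, with fraction as a term, alone pairs DOX with control. At a level of 7, and again with levels under 6 set to 6, 2 genes were 2-fold lower in place of 6, 0 were backed lower and 7 higher, without POSTN and TTC39B. Without shared probe sets 5 genes were backed higher in place of 9, without COL1A2, POSTN, ATP6V0D2 and MEF2C, and 0 lower, and UCHL1 was at -0.0274, from a probe set under 6. At 1.5-fold there were 136 higher and 73 lower genes, 34 backed higher and 10 backed lower. In limma, 0 genes passed as higher without the trend, without a level filter or after cyclic loess, and 4 at a level of 7. The higher count was 22 at a level of 7 and with the floor at 6, 27 without shared probe sets, 33 by means of probe sets and 37 without a filter. Centring and cyclic loess kept all 38 calls. Of the list medians, 6 moved without shared probe sets. Values near a level of 6 are limited by background.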

Other observations

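Measured probe sets that the annotation gives to several genes or none numbered 5464, of which 22 were 2-fold or more higher and 18 lower in the ALDH-negative pair. BLID, a gene within the MIR100HG locus, read 7.22 in ALDH-negative control and 7.69 with DOX, and 6.90 and 6.92 in the ALDH-positive arrays. COL3A1 read 5.76 in ALDH-positive control against 9.50 to 11.24 in the other 3 arrays.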
